A study of Mus musculus with 12 samples.

Results

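Complement is the set of blood and tissue proteins that tag cells and immune complexes for removal. The classical pathway begins when C1q, a recognition protein built from an A, a B and a C chain, binds antibody or altered cell surfaces and switches on the proteases C1r and C1s, which cleave C4 and C2 into an enzyme that in turn cleaves C3, the component on which all pathways converge. The alternative pathway builds its own C3-cleaving enzyme from C3 and factor B, and C1 inhibitor blocks C1r and C1s. Most plasma complement is made by liver, whereas C1q comes largely from macrophages and other myeloid cells, and fibroblasts and adipocytes can make several of the remaining components.

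The transcripts described here are those of 9 complement genes, *C1qa*, *C1qb*, *C1qc*, *C1ra*, *C2*, *C3*, *C4b*, *Cfb* and *Serping1*, taken from the 55401 gene rows of a count table by their Ensembl identifiers. All 9 passed the filter on low counts, as did 20818 genes in all, and they were picked by gene identity, with earlier results of these data known. The table covers 12 subcutaneous tumors grown from 125000 TC2Ras cells, a mouse prostate cancer line, and collected 21 days after implantation, in 4 groups of 3. In the Control group TC2Ras cells were implanted alone and the mice drank water with 0 ppb inorganic arsenic (iAs). ASC tumors grew from TC2Ras cells mixed with 1% ASC-GFP cells, which are primary adipose-derived stromal cells from male GFP-transgenic C57BL/6 mice, also at 0 ppb. As300 tumors grew from TC2Ras cells alone in mice given 300 ppb iAs from implantation on, and ASC_As300 tumors combined the 1% ASC-GFP cells with 300 ppb. Before implantation all mice were kept on low-arsenic AIN-76A chow and Milli-Q water, and the diet after it is not stated. Left and right flank tumors of a mouse were combined, and the sources used here give no strain or age for the tumor-bearing mice.

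The sample labels name the cell type as adipose-derived stromal cells, whereas by the protocols RNA came from whole tumor tissue, and the libraries are read as bulk tumor. Total counts ran from 39157647 to 55168642 per tumor. Summed over the tested genes of each list, fibroblast markers stood between 5418 and 10190 CPM (counts scaled to a common library size), macrophage markers between 1137 and 1831 CPM, and epithelial markers, with *Krt7* at the floor in all 12 tumors, between 26.9 and 362.5 CPM. Control tumor 1 stood apart with a B and plasma cell marker sum of 392.8 CPM and the highest epithelial sum, and ASC tumor 2 with an adipocyte marker sum of 699.8 CPM, so some of the results are also given without them. In such bulk tissue, a change in the number of cells that express a gene and a change in RNA per cell cannot be told apart.

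The C1q chain genes lie side by side on mouse chromosome 4 and the members differ in the immune signals they are known to answer, so the promoter letters available are shown before the values. On GRCm38 with GENCODE M21, *C1qa* spans chr4:136895917-136898803, *C1qc* chr4:136889804-136893065 and *C1qb* chr4:136880129-136886187, all on the minus strand. *C1ra* lies at chr6:124512405-124523443 on the plus strand and *Serping1* at chr2:84765387-84775444 on the minus strand. The other members are on the minus strand of chromosome 17, with *C4b* at chr17:34728380-34743882, *Cfb* at chr17:34856374-34862518, *C2* at chr17:34862604-34898265 and *C3* at chr17:57203970-57228136. The build the authors aligned to is not given in the sources used here, and these positions come from the reference annotation.

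RefSeq promoter windows (GRCm38.p6, 250 bases before to 50 bases after the start) were found for 4 of the 9 members, *C1qb*, *C1qc*, *C1ra* and *C3*, and not for *C1qa*, *C2*, *C4b*, *Cfb* and *Serping1*. Each window was searched on both strands for 4 motifs, which were chosen after the matches were seen. These are the GAS (gamma-activated site) element TTCNNNGAA, the ISRE (GAAA, any 2 bases, GAAA), read by interferon-activated factors, the PU box GAGGAA, read by the myeloid factor PU.1, and an NF-kB element (GGGA, any 2 bases, TTCC). Capitals mark the motif letters found, sequences run 5′ to 3′ on the gene's strand, and those of *C1qb*, *C1qc* and *C3* stop where annotated exons begin.
C1qb, chr4:136886201-136886450, minus strand: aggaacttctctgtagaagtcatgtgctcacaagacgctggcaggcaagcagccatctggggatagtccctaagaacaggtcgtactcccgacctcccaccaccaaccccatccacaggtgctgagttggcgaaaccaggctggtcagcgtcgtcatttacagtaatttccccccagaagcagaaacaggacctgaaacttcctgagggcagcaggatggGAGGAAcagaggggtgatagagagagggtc
C1qc, chr4:136893066-136893164, minus strand: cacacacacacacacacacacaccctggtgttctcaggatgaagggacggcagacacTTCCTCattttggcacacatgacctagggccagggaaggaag
C1ra, chr6:124512641-124512670, plus strand: gcaaatgcttcaTTCCCTGAAacaTTCCTC
C3, chr17:57228137-57228386, minus strand: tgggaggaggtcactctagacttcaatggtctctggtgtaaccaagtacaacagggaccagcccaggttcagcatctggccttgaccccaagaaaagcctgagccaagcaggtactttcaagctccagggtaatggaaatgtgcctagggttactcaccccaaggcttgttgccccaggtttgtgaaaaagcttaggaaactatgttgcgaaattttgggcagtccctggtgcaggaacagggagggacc

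PU box letters stood at bases -30 to -25 of *C1qb*, -193 to -188 of *C1qc* and 45 to 50 of *C1ra*, counted from the RefSeq start, and 28.3% of all 32851 windows held them. The GAS letters stood at bases 33 to 41 of *C1ra* without overlapping the PU box there, and 8.3% of all windows held them. Both *C1ra* matches lie after the RefSeq start, inside the annotated gene and in bases that an annotated transcript holds. The ISRE letters (3.44% of all windows) and the NF-kB letters (1.47%) were in none of the 4 members' windows. These matches describe letters only, and *C3* held none of the motifs in this window.

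Per kilobase of exon, the C1q chains were far above the rest. Over the 12 tumors, *C1qa* averaged 249 ± 57.7 CPM per kb (SD, groups pooled), *C1qb* 239 ± 60.5 and *C1qc* 183 ± 43.6. On this scale *C1qa* was above *C1qb* in all tumors but ASC_As300 tumor 2, and *C1qc* was below both in each of the 12 tumors. A lower tier held *Serping1* at 23.2 ± 13.3 CPM per kb, *Cfb* at 22.6 ± 11.5, *C3* at 15.2 ± 9.28, *C4b* at 12.4 ± 7.8 and *C1ra* at 8 ± 3.31, each within the spread of its neighbors in that order. *C2* was lowest at 2.97 ± 1.22 CPM per kb. Depth was ample for all of them, with at least 173 counts of *C2* and at least 6143 counts of any C1q chain in a tumor.

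**Figure D1:**
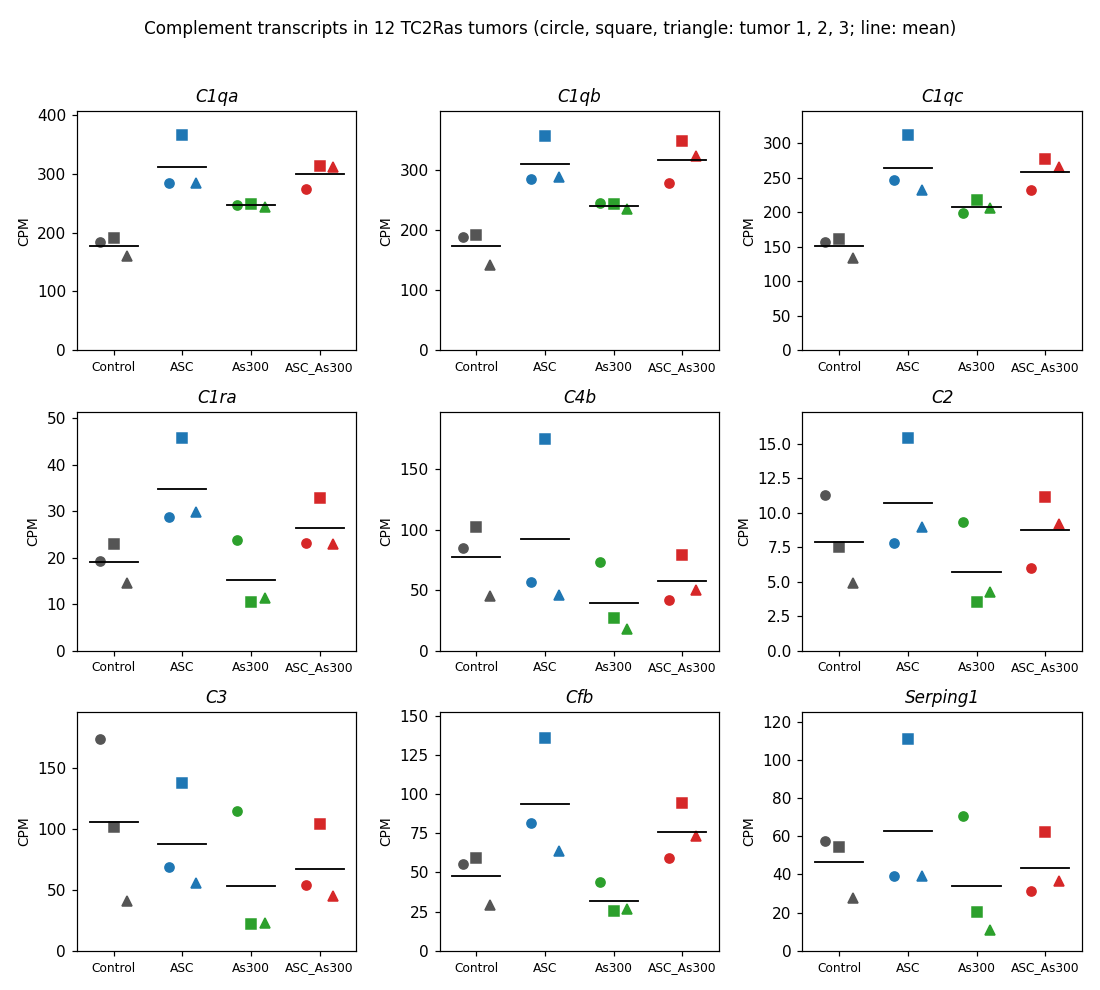
CPM (y axis, from 0) of the 9 complement genes in each tumor of the 4 groups (x axis), with circles, squares and triangles for tumors 1, 2 and 3 of a group and a line at the group mean. The C1q chains are lowest in Control and tight within groups (*C1qa* at 159 to 190 CPM in Control against 284 to 366 in ASC), whereas *C3*, *C4b* and *Serping1* spread several-fold within a group.

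The first question was how ASC co-implantation and iAs changed the recognition protein of the classical pathway. *C1qa*, which encodes the A chain, stood at 183, 190 and 159 CPM in Control tumors and at 285, 366 and 284 CPM in ASC tumors. As300 tumors held 247, 249 and 243 CPM of *C1qa*, and ASC_As300 tumors 275, 314 and 312 CPM. Every tumor of the other 3 groups was above every Control tumor, and As300 tumors lay between Control and the groups with ASC without overlapping them.

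*C1qb*, for the B chain, was at 188, 191 and 142 CPM in Control, and at 284, 357 and 287 CPM in ASC tumors. As300 tumors had 245, 243 and 234 CPM of *C1qb*, and ASC_As300 tumors 278, 348 and 322 CPM. The same order of groups was seen, again without overlap between Control, As300 and the ASC groups. *C1qc*, for the C chain, was at 157, 161 and 133 CPM in Control and at 247, 311 and 232 CPM in ASC tumors. It reached 199, 217 and 206 CPM in As300 tumors and 232, 277 and 265 CPM in ASC_As300 tumors. Here too the groups with ASC were highest and Control lowest.

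Against Control, ASC tumors had 1.75-fold *C1qa* (95% interval 1.49 to 2.06), 1.78-fold *C1qb* (1.47 to 2.16) and 1.75-fold *C1qc* (1.47 to 2.09), with edgeR adjusted p-values of 0.00221, 0.00672 and 0.0042. All 3 chains rose, and they were the only members called, that is with a Benjamini-Hochberg adjusted p under 0.05 over all genes tested and a change of at least 1.5-fold. Of all genes tested, 0.706% were called up in ASC tumors, against 3 of the 9 members. Leaving out ASC tumor 2 gave log2 fold changes of 0.68 for *C1qa*, 0.72 for *C1qb* and 0.67 for *C1qc*, leaving out Control tumor 1 gave 0.84, 0.90 and 0.85, and all of these stayed called. When only the 6 tumors of these groups were fitted, *C1qb* and *C1qc* lost the call (adjusted p = 0.0665 and 0.0522).

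ASC_As300 tumors also differed from Control in all 3 chains, with *C1qa* 1.69-fold (95% interval 1.44 to 1.98), *C1qb* 1.82-fold (1.5 to 2.2) and *C1qc* 1.72-fold (1.44 to 2.04) and edgeR adjusted p-values of 0.00362, 0.00483 and 0.00527. Again 3 of the 9 members were called up, against 0.783% of all genes tested. The comparisons against Control share the same 3 Control tumors and so are not independent of each other.

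As300 tumors had 1.39-fold *C1qa* (95% interval 1.18 to 1.63), 1.39-fold *C1qb* (1.15 to 1.68) and 1.38-fold *C1qc* (1.16 to 1.64). The edgeR adjusted p-values were 0.045, 0.0592 and 0.0517, and none of the 9 members was called, against 0.701% of all genes called up. With no minimum fold, *C1qa* alone of the members passed in the upward direction, as did 1.58% of all genes. DESeq2 called none of the members in this comparison either, while it called 495 genes up and 321 down. Over all alternative fits, DESeq2 among them, the log2 fold changes were 0.42 to 0.55 for *C1qa*, 0.37 to 0.57 for *C1qb* and 0.41 to 0.54 for *C1qc*. These lie under the 1.5-fold minimum of 0.585, so no fit with that minimum could call a chain, whatever its p-value. Their adjusted p-values (edgeR or DESeq2) ran, in the same order, from 0.000916 to 0.186, 0.00465 to 0.202 and 0.00271 to 0.195. An unadjusted edgeR p under 0.05 was reached by 3 of the 9, the C1q chains, and by 24.1% of all genes tested.

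Non-overlap gave a similar picture. In ASC tumors 5 of 9 members, the C1q chains, *C1ra* and *Cfb*, lay wholly above Control, as did 9.94% of all genes tested. The same 5 of 9 lay above Control in ASC_As300 tumors (13.5% of all genes), and in As300 tumors 3 of 9 did so, the C1q chains (14.5% of all genes). With 3 tumors on each side the smallest p an exact permutation test can reach is 0.1, and the p-values given are those of the edgeR model over all genes.

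**Figure D2:**
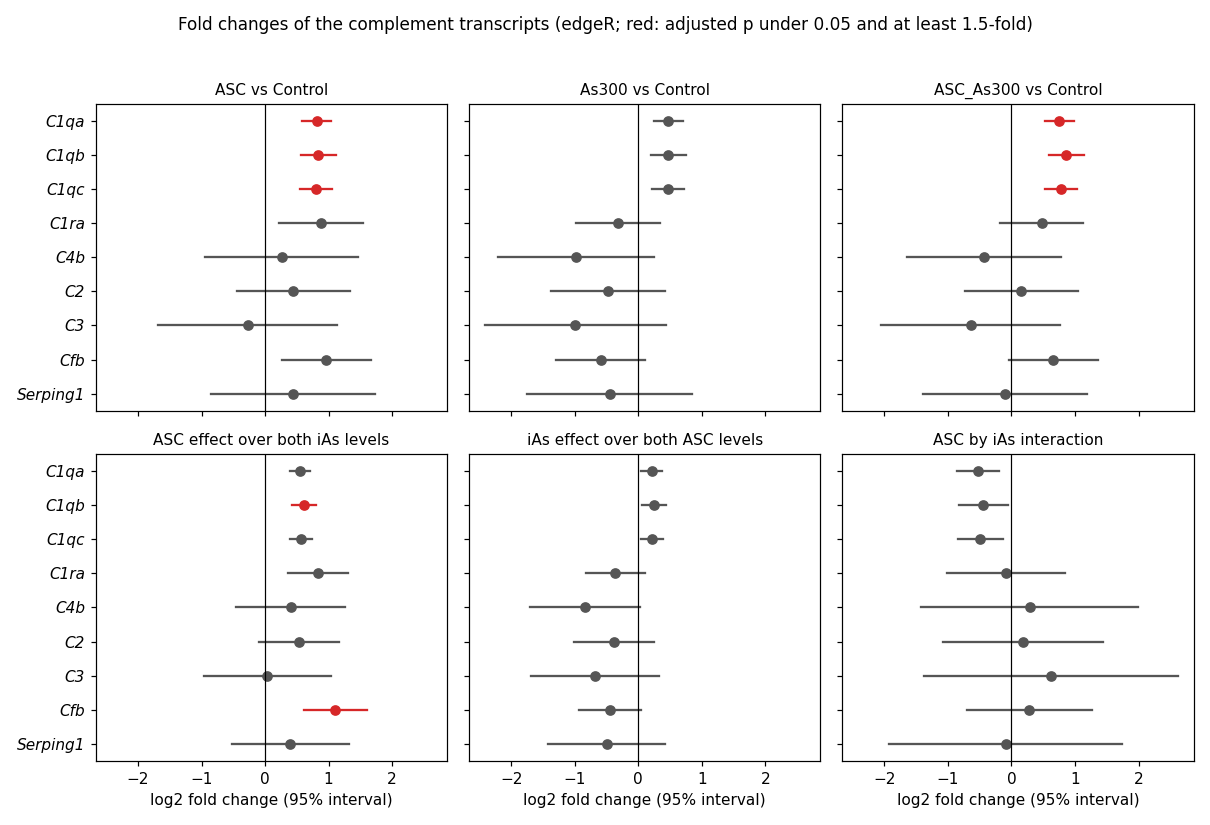
Log2 fold changes (x axis) with 95% intervals of the 9 genes (y axis) in 6 comparisons fitted with edgeR, in red where the adjusted p was under 0.05 and the change at least 1.5-fold. The C1q chains have narrow intervals to the right of 0 in all 3 comparisons against Control, at 0.81 to 0.83 in ASC and 0.46 to 0.47 in As300, while *C3* and *Serping1* have wide intervals that span 0.

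Whether iAs altered the response to ASC was asked by the interaction term, the difference between the ASC change with iAs and without it. For C1q the ASC change was smaller under iAs, with log2 differences of -0.53 for *C1qa*, -0.44 for *C1qb* and -0.49 for *C1qc*. The edgeR p-values were 0.0041, 0.0291 and 0.0104 unadjusted but 0.309, 0.331 and 0.309 adjusted. No gene was called in either direction for the interaction by edgeR (0% of those tested), where 2836 genes, or 13.6%, had an unadjusted p under 0.05 and DESeq2 called 29 up and 145 down, no member among them. In ASC_As300 against ASC tumors the C1q chains differed by -0.05, 0.03 and -0.03 on the log2 scale, with 95% intervals from -0.28 to 0.18 for *C1qa*, -0.24 to 0.30 for *C1qb* and -0.28 to 0.22 for *C1qc*. That comparison had 0% of genes called in either direction by edgeR, 669 genes at an unadjusted p under 0.05, none of them a member, and 4 up and 7 down by DESeq2.

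ASC_As300 against As300 tumors gave log2 differences of 0.29 for *C1qa*, 0.39 for *C1qb* and 0.32 for *C1qc*, with edgeR adjusted p-values of 0.379, 0.274 and 0.366. None of the 9 members was called in either direction, against 0.855% of all genes. An unadjusted edgeR p under 0.05 was reached by 5 of the 9 and by 9.98% of all genes tested. DESeq2 called none of the members, while it called 308 genes up and 91 down. 4 of 9 members, the C1q chains and *Cfb*, lay wholly above As300, as did 11.3% of all genes.

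Within each tumor the chains kept nearly fixed proportions. *C1qa* made up 33.4% to 36.7% of the summed C1q CPM, *C1qb* 32.7% to 37.1% and *C1qc* 28.8% to 30.7%. Across the 12 tumors their log2 CPM correlated with Pearson r of 0.987 to 0.995, and after removing group means with r of 0.916 to 0.966, as a description over tumors that share their groups.

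Since macrophages are a main source of C1q, the chains were set beside 10 macrophage markers. *Adgre1*, which encodes F4/80, averaged 55.9 CPM in Control, 81.6 in ASC, 60.1 in As300 and 79.9 in ASC_As300 tumors. *Csf1r*, the receptor for macrophage colony-stimulating factor, averaged 166, 194, 170 and 194 CPM in the same order, and *Cd68* 72.7, 102, 94.8 and 86 CPM. None of these 3 was called. Of the 10 markers, 2 were called up in ASC and in ASC_As300 tumors against Control, *Fcgr1*, a high-affinity antibody receptor that is also responsive to interferon, and *Aif1*, and in As300 tumors *Cd14* alone was called up. *Mrc1* and *Mertk* were not called and were on the lower side, with log2 fold changes against Control of -0.13 in ASC, -0.47 in As300 and -0.46 in ASC_As300 tumors for *Mrc1* and -0.35, -0.45 and -0.28 for *Mertk*, a receptor for dying cells.

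The summed C1q CPM was 37.5% to 38.2% of the summed macrophage markers in Control, 48.4% to 53.1% in As300, 53.8% to 70.1% in ASC and 54.3% to 70.4% in ASC_As300 tumors. Control lay below every other tumor on this ratio, and the values of As300 lay below both ASC groups. The denominator rested largely on *Lyz2*, lysozyme, which made up 52.3% to 60.3% of it. Without *Lyz2*, a choice made after the data were seen, the percentage was 80.9 to 93.4 in Control, 117 to 127 in As300, 113 to 148 in ASC and 125 to 154 in ASC_As300 tumors, so that Control remained lowest while As300 and both ASC groups overlapped. *Fcgr1* and *Aif1*, the 2 markers called up with ASC, rose 2.10-fold and 1.95-fold in ASC tumors and were picked after their values were seen. Against their sum alone the percentage was 1120 to 1280 in Control, 954 to 1100 in ASC, 1040 to 1150 in ASC_As300 and 1470 to 1780 in As300 tumors. Since these 2 markers rose more with ASC than the C1q chains, the lower percentage with ASC follows from that choice, and no conclusion is drawn from it. The summed macrophage markers themselves overlapped between groups, at 1137 to 1447 CPM in Control tumors, 1146 to 1831 with ASC, 1317 to 1425 with iAs and 1277 to 1704 with both. The part of macrophage number in the C1q difference was not tested.

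**Figure D3:**
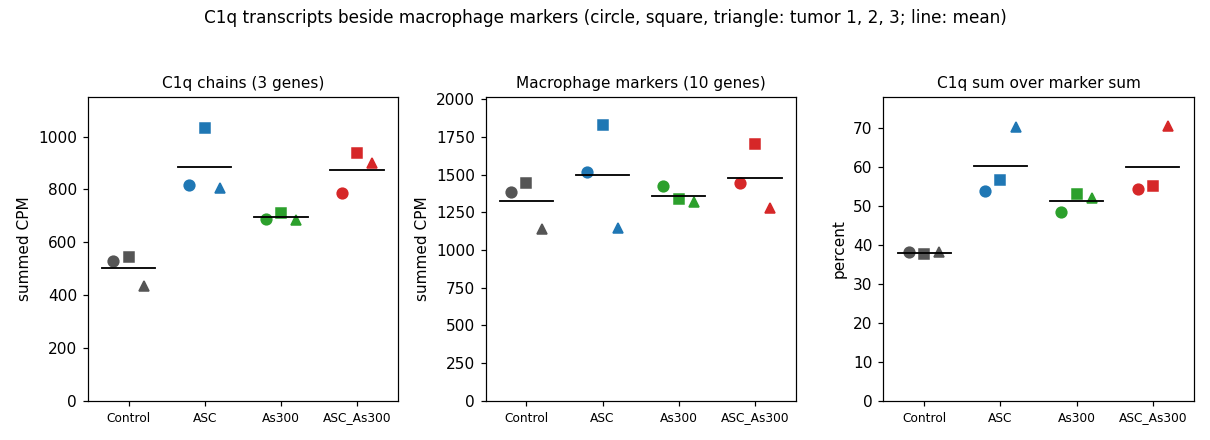
Summed CPM of the 3 C1q chains, summed CPM of 10 macrophage markers, and the first as a percentage of the second (y axes, from 0) in each tumor of the 4 groups (x axes), with symbols for tumors 1, 2 and 3 and a line at the mean. The marker sums overlap between groups, while the percentage is 37.5 to 38.2 in Control and 48.4 or more in every other tumor.

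*C1ra* encodes the C1r protease that C1q activates. It stood at 19.4, 22.9 and 14.6 CPM in Control and 28.9, 45.9 and 29.9 CPM in ASC tumors. As300 tumors held 23.9, 10.5 and 11.4 CPM, and ASC_As300 tumors 23.1, 32.9 and 23 CPM. Both groups with ASC lay above Control, by little in ASC_As300, while As300 tumor 1 lay above and As300 tumors 2 and 3 below every Control tumor. The log2 fold change was 0.88 ± 0.30 (SE) in ASC against Control (edgeR adjusted p = 0.202), and 0.84 ± 0.22 for the ASC effect over both iAs levels (adjusted p = 0.0859). DESeq2 called *C1ra* in both (adjusted p = 0.0382 and 0.00264), and edgeR called the second without As300 tumor 1 (log2 fold change 1.07, adjusted p = 0.00559). Of its 100-base exon stretches, 34.5% also occur in the paralog *C1rb*, so its counts are uncertain as far as reads could be split between them.

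*C4b* and *C2* encode the components from which the classical C3-cleaving enzyme is made. *C4b* was at 85, 102 and 44.9 CPM in Control and 56.9, 175 and 46.2 CPM in ASC tumors. It was at 72.9, 26.9 and 18.1 CPM in As300 and 42, 79.4 and 50.3 CPM in ASC_As300 tumors. Tumor 2 was far above the others in ASC, tumor 1 in As300, and all groups overlapped Control. The iAs effect over both ASC levels on *C4b* was a log2 fold change of -0.84 ± 0.40 (SE), the most negative of the 9 members, with an unadjusted edgeR p of 0.0553 and an adjusted p of 0.327. Its sequence shares 15.2% of 100-base stretches with *C4a*, which stayed between 83 and 150 counts.

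*C2* was at 11.3, 7.48 and 4.9 CPM in Control and 7.81, 15.5 and 8.95 CPM in ASC tumors. In As300 tumors it was at 9.31, 3.54 and 4.24 CPM, and in ASC_As300 tumors at 5.99, 11.1 and 9.18 CPM. The groups overlapped, and its ASC effect over both iAs levels was 0.54 ± 0.29 (SE) on the log2 scale (edgeR adjusted p = 0.56). Its exons share 35.5% of 100-base stretches with the read-through gene *Gm20547*, which had 69 counts in ASC tumor 1 and 0 in the other tumors, and overlap the antisense gene *Zbtb12* by 161 bp.

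*C3*, the component cleaved by either pathway, was at 174, 101 and 41 CPM in Control and 68.7, 137 and 55.6 CPM in ASC tumors. It was at 114, 22.3 and 22.7 CPM in As300 and 53.9, 104 and 44.5 CPM in ASC_As300 tumors. Within a group the highest tumor was 2.33 to 5.13 times the lowest, and all groups overlapped. Against Control the log2 fold changes of *C3* were -0.27 ± 0.65 (SE) for ASC tumors, -0.99 ± 0.66 for As300 tumors and -0.64 ± 0.65 for ASC_As300 tumors. Without Control tumor 1 they were 0.30, -0.40 and -0.074, and without As300 tumor 1 the As300 value was -2.23, with none of these called. The 95% interval of the ASC effect over both iAs levels reached from 0.51-fold to 2.05-fold.

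*Cfb*, which encodes factor B of the alternative pathway and is known as an interferon gamma-inducible gene in several cell types, was at 55.3, 59 and 29.2 CPM in Control and 81.3, 136 and 63.8 CPM in ASC tumors. As300 tumors had 43.8, 25.3 and 26.4 CPM, and ASC_As300 tumors 59.1, 94.2 and 73.4 CPM. Every tumor with ASC was above every tumor without, with ASC_As300 tumor 1 and Control tumor 2 nearest to each other at 59.1 and 59 CPM. The share of all genes split in this way was not counted, so nothing is read from the split. The ASC effect over both iAs levels was 2.15-fold (95% interval 1.53 to 3.04, edgeR adjusted p = 0.0241). In this contrast 2 of the 9 members were called up, *Cfb* and *C1qb*, against 1.36% of all genes, and with no minimum fold 4 of 9, *C1qa* and *C1qc* joining, against 1.77%. The *Cfb* call was lost without Control tumor 3 (log2 fold change 0.98, adjusted p = 0.0517), ASC tumor 2 (0.93, 0.0524), As300 tumor 2 (1.04, 0.0721), As300 tumor 3 (1.05, 0.0813), ASC_As300 tumor 2 (1.01, 0.0782) or ASC_As300 tumor 3 (1.12, 0.0581). It was kept without Control tumor 1 (1.16, 0.0313). The *C1qb* call was lost through the fold minimum alone, without Control tumor 3 (0.55), ASC tumor 2 (0.56) or ASC_As300 tumor 2 (0.58).

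In single comparisons *Cfb* was not called. Its log2 fold change from Control was 0.97 ± 0.32 (SE) for ASC tumors, -0.59 ± 0.32 for As300 tumors and 0.66 ± 0.32 for ASC_As300 tumors, with edgeR adjusted p-values of 0.193, 0.292 and 0.355, and 1.25 ± 0.33 in ASC_As300 against As300 tumors (adjusted p = 0.139). The counts of *Cfb* carry an uncertainty of their own, since 66.9% of its 100-base stretches also belong to *Gm20547*.

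*Serping1*, which encodes C1 inhibitor, was at 57.3, 54.3 and 27.6 CPM in Control and 39, 111 and 39 CPM in ASC tumors. It was at 70.7, 20.5 and 11 CPM in As300 and 31.1, 62.3 and 36.3 CPM in ASC_As300 tumors. The lowest and the highest As300 tumor differed 6.4-fold, and the groups overlapped throughout. Against Control its log2 fold change was 0.44 ± 0.60 (SE) in ASC, -0.45 ± 0.60 in As300 and -0.10 ± 0.60 in ASC_As300 tumors.

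The iAs effect over both ASC levels divided the members by direction without a call. The C1q chains were higher with iAs, by 0.21 to 0.25 on the log2 scale with unadjusted edgeR p-values of 0.0156 to 0.0204 and adjusted ones of 0.219 to 0.24. The other 6 were lower, with a median of -0.47. No gene was called in either direction by edgeR (0% of those tested), with 3325 genes at an unadjusted p under 0.05, and DESeq2 called 30 up and 84 down, no member among them. The median over the 9 members was -0.38 in this contrast and 0.55 for the ASC effect, beside -0.0188 and -0.0042 over all genes tested.

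The spread within groups also set the C1q chains apart from the other 6 members. The within-group SD of log2 CPM was 0.14 to 0.17 for the chains, below the median of 0.28 over all genes tested, and 0.44 for *C1ra*, 0.48 for *Cfb*, 0.59 for *C2*, 0.83 for *C4b*, 0.90 for *Serping1* and 0.98 for *C3*. For *C3*, 85.5% of genes had a smaller SD. All 6 peaked in the same tumor of a group, ASC tumor 2, As300 tumor 1 and ASC_As300 tumor 2, and in Control 3 of them peaked in tumor 1 and 3 in tumor 2. The C1q chains also peaked in ASC tumor 2 and ASC_As300 tumor 2, and *C1qb* in As300 tumor 1, so these peaks were not particular to the other 6. After removing group means, the other 6 correlated with each other with Pearson r of 0.855 to 0.971 and with the C1q chains with r of 0.436 to 0.877, over 12 tumors.

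Several marker sums peaked in the same tumors. The adipocyte markers were highest in Control tumor 1 at 375.8 CPM, ASC tumor 2 at 699.8, As300 tumor 1 at 112.9 and ASC_As300 tumor 2 at 100.4, and the fibroblast markers in Control tumor 2 at 7434 CPM, ASC tumor 2 at 10190, As300 tumor 1 at 6755 and ASC_As300 tumor 2 at 8223. The macrophage and endothelial sums peaked in the same tumors in 3 of the groups, at 1831 and 300.9 CPM in ASC tumor 2, 1425 and 247.8 in As300 tumor 1 and 1704 and 251.9 in ASC_As300 tumor 2. None of the 8 adipocyte and none of the 10 fibroblast markers was called in any comparison against Control, and adipocyte sums ran from 166 to 376 CPM in Control against 57.2 to 113 CPM over both iAs groups, with ASC tumors 1 and 3 inside that range at 74.5 and 87.1 CPM. Hepatocyte markers were low, with a summed level of 1.32 to 14.5 CPM and *Serpina1a* and *Ahsg* at the floor in all tumors. Their sum peaked in the same tumors as the adipocyte markers, at 8.18 CPM in Control tumor 1 and 14.5 in ASC tumor 2. In As300 tumor 1 it was 10.7 CPM and in ASC_As300 tumor 2 it was 4.62 CPM. The part of adipose, fibroblast, macrophage or endothelial content in the spread of *C3*, *C4b*, *Cfb*, *C2*, *C1ra* and *Serping1* was not tested.

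**Figure D4:**
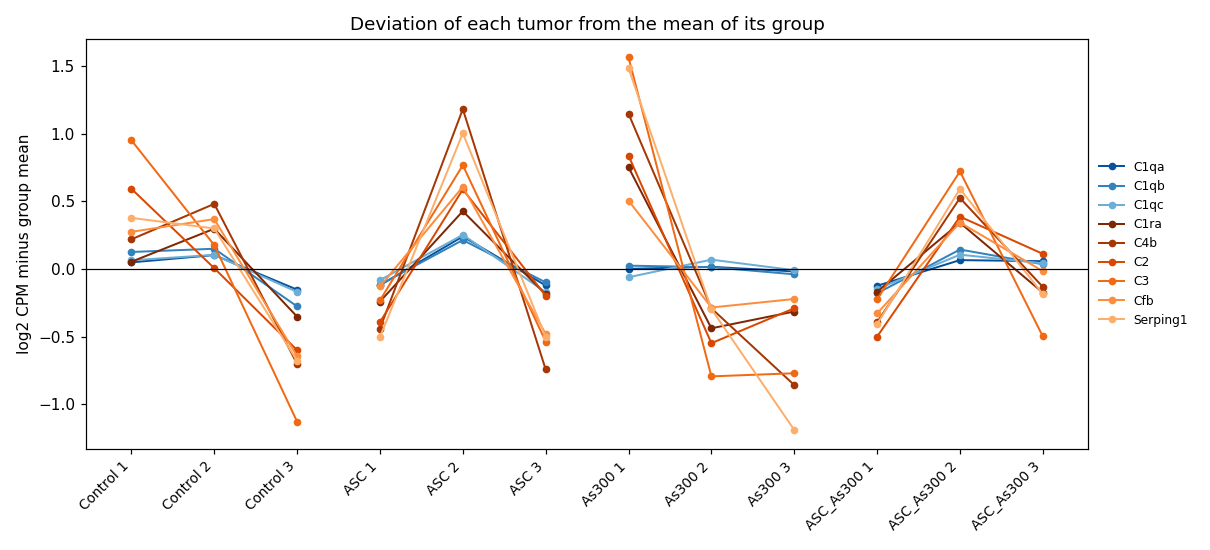
Log2 CPM of each gene minus its group mean (y axis) in the 12 tumors (x axis), with the C1q chains in blue, the other 6 genes in orange to brown, and lines joining the 3 tumors of a group. The C1q chains stay near their group means (SD 0.14 to 0.17), and they too are highest in ASC tumor 2 and ASC_As300 tumor 2. The other 6 genes share high values in ASC tumor 2, As300 tumor 1 and ASC_As300 tumor 2.

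The genes whose log2 CPM most resembled each member over the 12 tumors are given by Pearson r, as a description. *Cd300c2*, a myeloid surface receptor, and *Cndp2*, a dipeptidase, were nearest to all C1q chains. Their r was 0.955 and 0.953 with *C1qa*, 0.967 and 0.962 with *C1qb*, and 0.957 and 0.970 with *C1qc*. The third neighbor was *Scly* for *C1qa* (0.947) and the inhibitory myeloid receptor *Cd300a* for *C1qb* (0.956) and *C1qc* (0.951). *C1ra* was nearest to *Ifi205* (0.970), *Ccl8* (0.947) and *Bst1* (0.943), and *Cfb* to *Slfn1* (0.979), *Trim30a* (0.966) and *Sp140* (0.962). *C4b* was nearest to *Fndc1* (0.974), to *C1s1* (0.973), the partner protease of C1r, and to the matrix protease *Adamts5* (0.963). *Serping1* (0.965) and *C3* (0.931) were both near to *Dpep1*, and *C2* (0.925) and *C3* (0.936) both to *Ms4a4d*. The remaining neighbors were *Gm36161* (0.934) and *Serpinb6b* (0.914) for *C2*, *Dpp4* (0.925) for *C3*, and *Clec10a* (0.958) and *C6* (0.950) for *Serping1*.

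Because *Cfb* is known to answer interferon gamma, a list of 14 interferon gamma response genes was read beside it. Its summed level was 239 to 430 CPM in Control, 226 to 320 in As300, 1343 to 1554 in ASC and 1368 to 1726 in ASC_As300 tumors, so that both groups with ASC lay above both without. Of the 14, 11 were called up in ASC and 12 in ASC_As300 against Control, none in As300, and 13 for the ASC effect over both iAs levels. In that last contrast the guanylate-binding proteins *Gbp2* and *Gbp3* had log2 fold changes of 3.65 ± 0.17 (SE) and 2.83 ± 0.15, the immunity-related GTPase *Igtp* 3.24 ± 0.15, the transcription factor *Irf1* 1.57 ± 0.09 and its relative *Irf8* 0.69 ± 0.16, while *Ciita*, the regulator of class II antigen presentation genes, was not called at 0.94 ± 0.47. On the same scale *Cfb* stood at 1.11, *C1ra* at 0.84 and the C1q chains at 0.55 to 0.61. *C2* stood at 0.54, *C4b* at 0.40, *Serping1* at 0.39 and *C3* at 0.04, none of them called. The part of interferon signaling in these differences was not tested.

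Other marker sums also moved with ASC. The epithelial markers summed to 66.2 to 362.5 CPM in Control and 96.6 to 120 CPM in As300 tumors, against 32.1 to 48.8 CPM with ASC and 26.9 to 41.8 CPM with both, so tumors with ASC lay wholly below those without, and 1 of 7 tested genes was called down in the ASC effect at both iAs levels combined. The T and NK cell markers summed to 13.8 to 74 CPM in Control and 13.8 to 20 CPM in As300 tumors, against 56 to 80.8 CPM with ASC and 47.5 to 80.5 CPM with both, with 2 of 10 called up in the same contrast. The part of tumor cell or lymphocyte content in the rise of the C1q chains and *Cfb* was not tested.

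The remaining complement genes were taken from a list of 42, of which 31 could be tested. Among genes of classical and lectin initiation, 0 of 8 tested was called in the ASC effect over both iAs levels, with log2 fold changes of 0.81 ± 0.32 (SE) for *C1rb* and 0.57 ± 0.30 for *C1s1*. *C1rb* had an unadjusted edgeR p of 0.0262 and an adjusted p of 0.362, and *Mbl1*, *Mbl2* and *Fcnb*, recognition proteins of the lectin pathway, were at the floor. Of the 2 alternative pathway genes none was called, with 0.11 ± 0.13 for *Cfp*, properdin, and -0.10 ± 0.82 for *Cfd*, the factor D that adipocytes release. *Cfd* had 8840 counts in ASC tumor 2 and 210 and 460 in the other ASC tumors. Of 4 tested terminal pathway genes none was called, at -0.51 ± 0.27 for *Hc*, which encodes C5, and 0.53 ± 0.48 for *C6*, and *C8a*, *C8b* and *C9* were at the floor.

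Among 9 complement receptors, 2 were called up in the ASC effect over both iAs levels, against 1.36% of all genes tested. *Itgax*, the CD11c subunit of complement receptor 4, had a log2 fold change of 0.97 ± 0.16 (SE, edgeR adjusted p = 0.00464), and *Itgb2*, its CD18 partner, 0.81 ± 0.13 (adjusted p = 0.00441). *Itgax* stood at 17.8, 12.8 and 10.6 CPM in Control and 34.4, 21.1 and 20.7 CPM in ASC tumors, and at 13.3, 13.2 and 17 CPM in As300 and 28, 31.8 and 30 CPM in ASC_As300 tumors. Both groups with ASC lay above both groups without. *Itgax* was also called in ASC_As300 against Control (1.13 ± 0.22, adjusted p = 0.0318). Among regulators 1 of 8 was called, downward, as were 18 of the 20818 genes tested. *Clu*, clusterin, which blocks the terminal complex, fell by 1.34 on the log2 scale with ASC over both iAs levels (SE 0.19, adjusted p = 0.00186) and by 1.40 in ASC against Control (adjusted p = 0.0333). It was at 183, 96.3 and 94.9 CPM in Control, 40.4, 56.8 and 44.8 CPM in ASC, 170, 93.6 and 167 CPM in As300 and 64.2, 62 and 51.8 CPM in ASC_As300 tumors. The groups with ASC lay wholly below those without. The shares of all genes split like *Itgax* or like *Clu* were not counted, so nothing is read from these splits. *Cd55* had a log2 fold change of -0.46 ± 0.56, and *Cfi* and *C4bp* were at the floor.

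**Figure D5:**
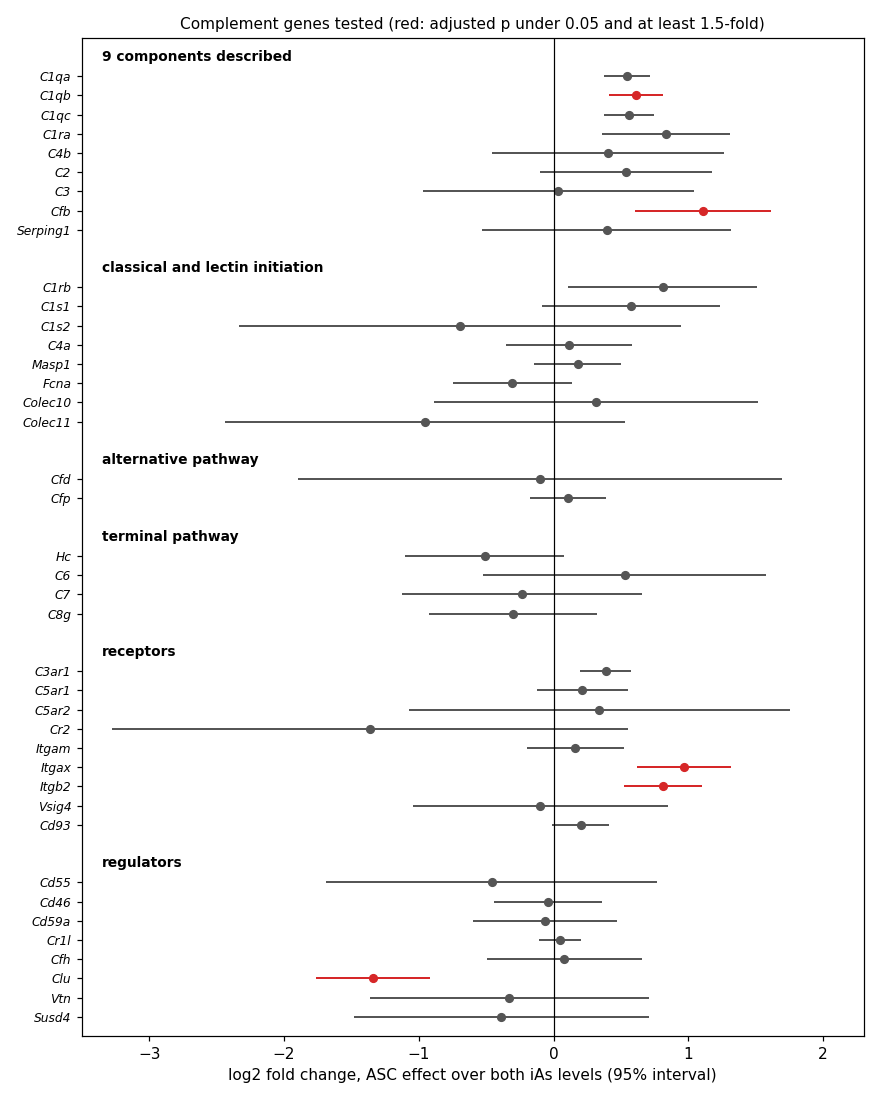
Log2 fold changes with 95% intervals (x axis) for the ASC effect over both iAs levels of the 9 components described and the 31 other complement genes tested, grouped by role (y axis), in red where called. *Cfb*, *C1qb*, *Itgax* and *Itgb2* are red to the right of 0, and *Clu* is red at -1.34.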

How the data were processed

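RNA-seq of 12 TC2Ras tumors was analysed from the whole-number counts per Ensembl gene that the authors deposited, without normalization. Per the paper and the submitters' processing notes, poly(A) RNA libraries (TruSeq Stranded mRNA) were sequenced paired-end, trimmed with Cutadapt 1.1.0, aligned with HISAT2 2.0 and quantified with StringTie 1.3.4. The step that made the counts, its strand setting and the genome build are not given in the sources used here. Low counts gathered at 4 (1137 to 1298 genes per tumor, against 618 to 795 at 3), so a gene with at most 12 counts in a tumor was treated as at the floor. The total per tumor was 39157647 to 55168642.

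Counts were filtered (filterByExpr by group, 20818 of 55401 genes) and scaled by TMM, and edgeR 4.0.16 (R 4.3.3) fitted the group means of all 12 tumors together by quasi-likelihood. A call needed a Benjamini-Hochberg adjusted p under 0.05 over all genes and 1.5-fold, the thresholds of the study, in 8 contrasts. Intervals are 95%, and log2 CPM has a prior count of 2. Gene lengths and overlaps came from GENCODE M21, and the procedure was tested on simulated data. Replicates are tumors of separate mice per the protocols, and no pair of libraries of the same group agreed within sampling noise.

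The members and lists were chosen with earlier results of these data known. Named are all 9 members, wider-list genes called in any contrast or, per class, the 2 with the smallest p in the ASC effect, the 3 nearest genes per member, 4 interferon gamma response genes, *Adgre1*, *Csf1r* and *Cd68*. *Fcgr1*, *Aif1*, *Cd14*, *Mrc1*, *Mertk*, *Lyz2*, *Irf8*, *Ciita* and the genes sharing sequence with a member were named after their values were seen. Alternatives were DESeq2 1.42.0, its size factors in edgeR, other count filters, no minimum fold, only the tumors compared, a replicate block, counts divided by 4 and leaving out each tumor; other denominators for the C1q percentage were added after the data were seen. The full name of the GFP transgene is not reported here.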

Additional observations from a re-analysis of the deposited data

How the results depend on the processing

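With each tumor left out in turn, the 3 C1q chains stayed called in ASC and in ASC_As300 against Control in all 12 fits, at log2 fold changes of 0.67 (*C1qc*) to 0.92 (*C1qb*) and 0.70 (*C1qa*) to 0.96 (*C1qb*). The number of members called in the ASC effect over both iAs levels, 2 in the report, ran from 0 to 3 in these fits and was 4 with no minimum fold. With no minimum fold 1 member was called in As300 against Control, and with only the tumors compared 1 member was called in ASC against Control and 1 (*Cfb*) in ASC_As300 against As300 tumors. Over 1413 results of single genes under an alternative, 1338 kept direction and call, 11 lost and 11 gained a call, and 53 changed direction, none of these called in the report; the cause was not tested. Leaving out a tumor moved log2 fold changes across 0 as follows. For *C3*, *C4b* and *Serping1* in ASC against Control, the low end was the fit without ASC tumor 2. In ASC against Control the ranges were -0.76 to 0.30 for *C3*, -0.59 to 0.58 for *C4b* and -0.25 to 0.71 for *Serping1*, in As300 against Control -1.56 to 0.0049 for *Serping1*, and in ASC_As300 against Control -0.084 to 0.51 for *C2* and -0.45 to 0.10 for *Serping1*. In ASC_As300 against ASC they were -0.13 to 0.078 for *C1qa*, -0.053 to 0.15 for *C1qb*, -0.11 to 0.11 for *C1qc*, -0.51 to 0.065 for *C2*, -0.83 to 0.12 for *C3*, -1.02 to 0.15 for *C4b*, -0.52 to 0.059 for *Cfb* and -0.91 to 0.15 for *Serping1*, and against As300 -0.13 to 1.58 for *C3* and -0.096 to 1.46 for *Serping1*. For the ASC effect they were -0.21 to 0.65 for *C3* and -0.019 to 0.80 for *C4b*, and for the interaction -0.31 to 0.39 for *C1ra*, -0.20 to 0.73 for *C2*, -0.10 to 1.13 for *C4b* and -0.55 to 1.02 for *Serping1*. Deviations of tumors with the same number correlated with r of -0.124 to 0.172, so the numbers did not pair the tumors; with a replicate block the counts of members called stayed at 3 in ASC, 0 in As300, 3 in ASC_As300 and 2 in the ASC effect, and the interaction of *Serping1* turned to 0.0995. With 3 tumors a group and SEs of 0.3 or more on the log2 scale, a change of 1.5-fold (0.585) in *C1ra*, *C2*, *C3*, *C4b*, *Cfb* or *Serping1* lies within 2 SEs in any comparison of 2 groups.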

Other observations

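Besides the genes the report names, *C3ar1*, the receptor for the C3a fragment released when C3 is cleaved, was higher with ASC over both iAs levels by 0.39 ± 0.08 (SE) on the log2 scale (edgeR adjusted p = 0.0345), short of 1.5-fold, and was picked out after its value was seen. Of 10 inflammatory cytokine response genes, 1 was called up in each group against Control, and their summed level was 162 to 166 CPM in Control, 179 to 218 with iAs, 210 to 234 with ASC and 204 to 262 with both, so that every other tumor lay above every Control tumor. The dendritic cell markers stood at 21.2 to 38.3 CPM, the neutrophil markers at 8.01 to 20.3 CPM and the endothelial markers at 180 to 301 CPM over the 12 tumors, with 1 of 8 dendritic cell markers called up for the ASC effect over both iAs levels and no marker of the other 2 lists called in that contrast. The B and plasma cell markers summed to 392.8 CPM in Control tumor 1 and to 14.2 to 58.2 CPM in the other 11 tumors.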
